A study of Oryza sativa Japonica Group with 96 samples.

Results

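Cytokinin oxidases (CKX) are the enzymes that break down cytokinin, and 7 rice CKX genes were followed by hour in the stem base of seedlings in which the crown root regulator CRL1 was switched on. The members are CKX1 (LOC4325668), CKX2 (LOC4327333), CKX3 (LOC4348932), CKX4 (LOC4326515), CKX5 (LOC4327887), CKX9 (LOC4338605) and CKX11 (LOC4345764). They were matched by gene name and are 7 of 36643 features on the array and 7 of the 24161 features that the platform annotation ties to 1 gene. Each member had 1 feature, and all 7 were tested with no filter on low values.

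All plants were the crl1 mutant of rice cultivar Taichung 65, which lacks a working CRL1 and makes no or few crown roots. The DXC line carried the vector pINDEX2 with CRL1 behind its dexamethasone-inducible promoter, and the DX line carried the empty pINDEX2. Both lines received 1 µM dexamethasone at 0 h, and the medium was renewed at 5 h to take it away, so DX also carries the response to the inducer and to fresh medium. Stem bases, pooled to 10 to 15 per sample, were taken at 16 hours from 0 to 45 h in 3 independent experiments. This gave 48 DXC arrays and 48 DX arrays, 3 per line and hour. Each line is 1 line of transformants, so a difference between DXC and DX at 0 h can belong to the lines as such. Before treatment, seedlings spent 5 days in dishes under 14 h of light a day and then 24 h in flasks.

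Cytokinin and auxin oppose each other in root initiation, and auxin, acting in part through CRL1, promotes crown roots while cytokinin restrains them. CKX enzymes cut the side chain of cytokinins in an irreversible oxidation, and LOG enzymes do the opposite work of releasing active cytokinin from its nucleotide. The hormone is sensed by histidine kinases, whose signal passes through phosphotransfer proteins to type-B response regulators, which are transcription factors, and to type-A response regulators, which are induced quickly and damp the signal. Among the members, CKX2 is the grain number locus Gn1a, overexpression of CKX4 is known to raise crown root number in rice, CKX9 is known as a strigolactone-responsive gene, and CKX11 is known from leaf senescence and grain number.

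Values are log2 expression on the authors' GCRMA scale, which has no detection call, and levels of different features are not compared as amounts of transcript. Array medians lay between 4.62 and 4.76, and the median correlation of arrays within a group was 0.971. From 0 to 9 h the SD over features of an array averaged 1.65 in DXC and 1.52 in DX. In the same hours features below the median level (4.69) had a median DXC minus DX of -0.07, -0.11, -0.16 and -0.11, and features above it had 0.16, 0.27, 0.26 and 0.21. From 12 h on both medians lay between -0.02 and 0.04. The 96-array means of CKX5 (5.16) and CKX11 (6.64) were above the median level, and those of CKX1 (3.84), CKX2 (4.06), CKX3 (3.45), CKX4 (4.0) and CKX9 (3.54) were below it. The stem base is a mixed tissue, so fewer cells of a type and less RNA per cell cannot be told apart in any value.

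**Figure D1:**
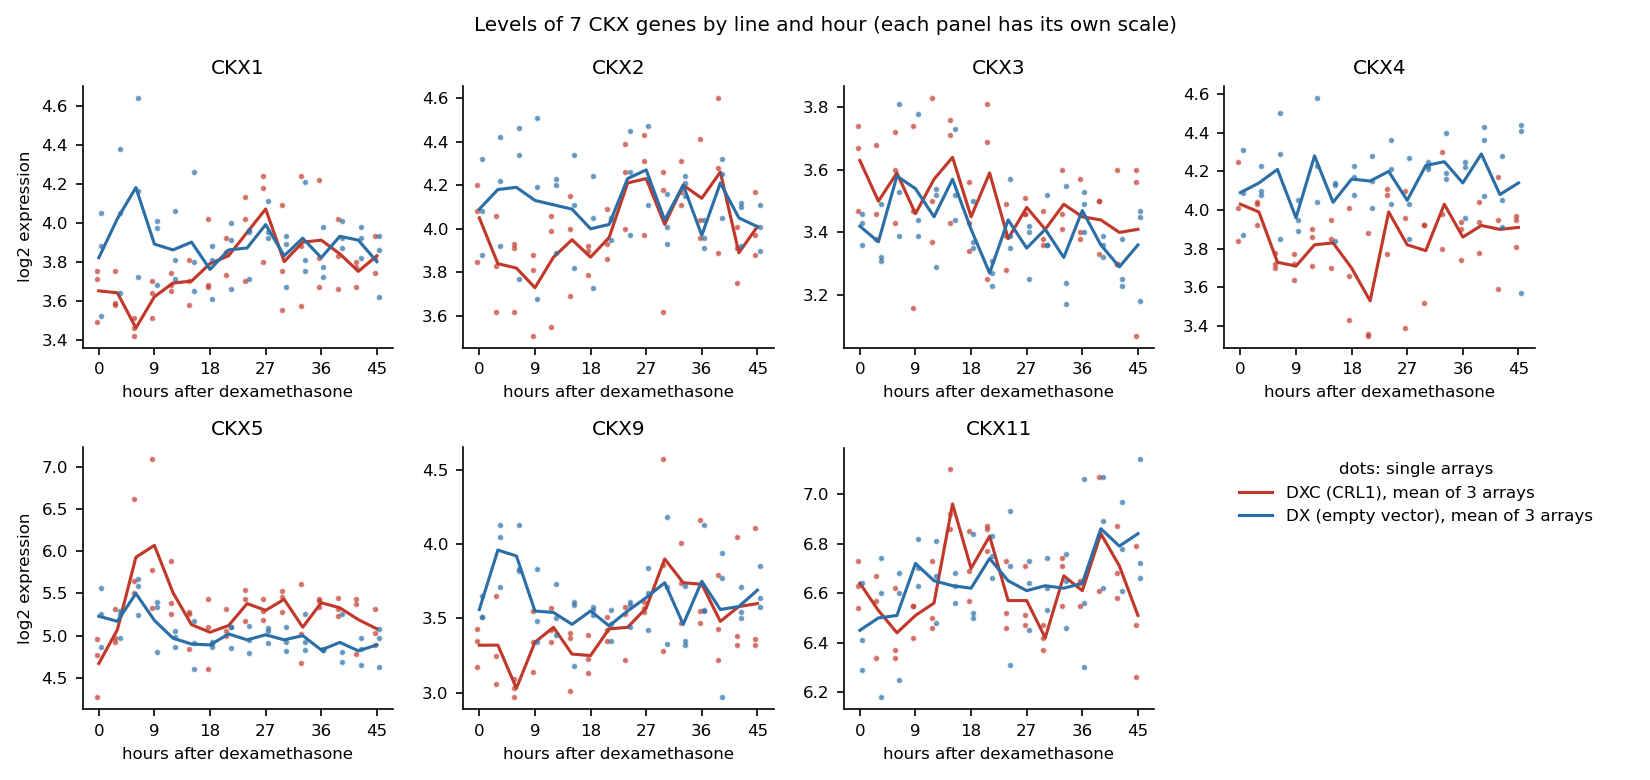
Log2 expression (y axis, a separate scale in each panel) of the 7 CKX genes against hours after dexamethasone (x axis). Dots are single arrays and lines are means of 3 arrays, DXC in red and DX in blue; the CKX5 mean in DXC is highest at 9 h (6.07), and the CKX4 mean is lower in DXC at all 16 hours.

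CKX5 changed with time in DXC, the only member whose time effect was called in that line, and no member was called in DX. A gene was called when its Benjamini-Hochberg adjusted p from limma was under 0.05. For CKX5 the F test over the 15 hours after 0 h gave an adjusted p of 0.00318 in DXC and 0.863 in DX. Among all features, 5.37% had a called time effect in DXC and 0.371% in DX. At an unadjusted p under 0.05 there were 3 members in DXC (20.6% of features) and 0 in DX (9.84% of features).

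The CKX5 values in DXC were 4.96, 4.27 and 4.77 at 0 h, 4.97, 4.93 and 5.32 at 3 h, 5.65, 5.51 and 6.62 at 6 h, 5.78, 5.33 and 7.09 at 9 h, and 5.39, 5.26 and 5.88 at 12 h. All 3 arrays at 6 h and at 9 h were above all 3 at 0 h, as was so for 4.35% of all features, and experiment 3 gave the highest value at each hour from 3 to 12 h. In DX the values were 5.26, 5.57 and 4.87 at 0 h, 5.29, 4.97 and 5.24 at 3 h, 5.67, 5.25 and 5.59 at 6 h, 5.40, 4.80 and 5.34 at 9 h, and 4.98, 5.06 and 4.87 at 12 h. The DX arrays at 0 h overlapped with those of 3, 6, 9 and 12 h.

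In DXC, CKX5 was 2.40-fold higher at 6 h than at 0 h (log2 difference 1.26, SE 0.24, n = 3; adjusted p = 0.00161) and 2.64-fold higher at 9 h (1.40, SE 0.24; adjusted p = 0.000279). At 12 h the difference was 0.84 (adjusted p = 0.0881), and at 3 h it was 0.41 (adjusted p = 0.536). The 9 h difference was 0.82, 1.06 and 2.33 in the 3 experiments, so its direction was shared and its size was not. Of all features, 1.34% were called at 6 h against 0 h in DXC and 1.70% at 9 h. CKX5 was the only member called at any hour against 0 h in DXC, where 4.27% of features were, and no member was called in DX, where 0.0191% were. In DX the CKX5 differences from 0 h were -0.06, 0.27, -0.05 and -0.26 at 3, 6, 9 and 12 h, with adjusted p from 0.958 to 0.991. Experiment 2 of DX ran below its 0 h value at all 4 of these hours.

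**Figure D2:**
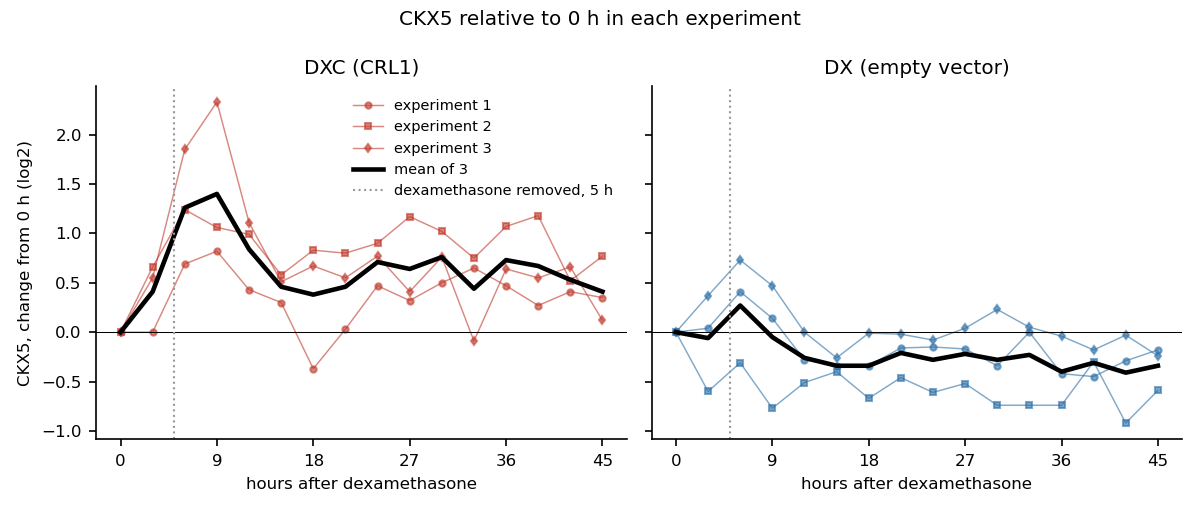
Change of CKX5 from its 0 h value (y axis, log2) against hours after dexamethasone (x axis), in DXC (left) and DX (right). Thin lines are the 3 experiments, the thick line is their mean and the dotted line marks the removal of dexamethasone at 5 h; the DXC mean is 1.40 at 9 h and the DX mean is -0.05.

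After the peak CKX5 stayed at middle values in DXC, with no hour from 15 to 45 h called against 0 h (adjusted p from 0.147 to 0.575). Hourly means from 15 to 45 h lay between 5.04 (18 h) and 5.43 (30 h), against 4.82 (42 h) and 5.02 (21 h) in DX. By mean level in DXC the order began with 9 h (6.07 ± 0.92, SD, n = 3), 6 h (5.93 ± 0.60) and 12 h (5.51 ± 0.33), and ended with 0 h (4.67 ± 0.36). The neighbours 9 h and 6 h differed by less than their SD, as did 12 h and 30 h (5.43 ± 0.13). In DX the highest hour was 6 h (5.50 ± 0.22) and the lowest 42 h (4.82 ± 0.16).

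Set against DX hour by hour, CKX5 was called at no hour. At 9 h its level averaged 6.07 ± 0.92 in DXC and 5.18 ± 0.33 in DX. The log2 difference was 0.89 (SE 0.24, adjusted p = 0.0653, and 0.0386 with the experiment as a block). At that hour 2.46% of features were called. After quantile normalization the difference was 0.75 (adjusted p = 0.13). Features above the median level, where CKX5 lies, had a median DXC minus DX of 0.21 at 9 h. The experiments gave differences of 0.39, 0.53 and 1.75 at 9 h, and the lines overlapped, since the lowest DXC array (5.33) was below 2 of the DX arrays. DXC was above DX in the mean at 14 of 16 hours and below it at 0 h and 3 h. At 12, 24, 27, 30 and 36 h all 3 DXC arrays were above all 3 DX arrays, and 3.62% of features had as many such hours or more. Replicates were close at 36 h, with 5.43, 5.34 and 5.41 in DXC against 4.84, 4.83 and 4.83 in DX (difference 0.56; adjusted p = 0.344).

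The change of CKX5 from 0 h was larger in DXC than in DX by 1.45 at 9 h (SE 0.35; adjusted p = 0.0745; 0.0431 with the experiment as a block) and by 0.99 at 6 h (adjusted p = 0.542). With sets of 4 consecutive hours as a random block, the 9 h value had an adjusted p of 0.0017. Without a block no member was called in this test at any hour, and 0.639% of features were. The F test of the line by time interaction had an adjusted p of 0.558, in a table where 0.969% of features were called. At 0 h the level was 4.67 ± 0.36 in DXC and 5.23 ± 0.35 in DX (difference -0.56; adjusted p = 0.345), and this enters each change from 0 h. Experiment 2 contributed most of it, with -1.30 against -0.29 and -0.10 in experiments 1 and 3.

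The CKX5 time effect in DXC rested on all 3 experiments, with an adjusted p of 0.234 without experiment 1, 0.0564 without experiment 2 and 0.0549 without experiment 3. In a fit of the DXC arrays alone it was 0.12. The 6 h change had an adjusted p of 0.0734 without experiment 2, and the 9 h change was called in each fit that left out 1 experiment, with 0.94 and an adjusted p of 0.0486 without experiment 3.

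CKX1 and CKX9 were lower in DXC than in DX at 6 h, and they were the only members called at any hour from 3 to 45 h. Both calls were for a lower level in DXC. Among all features, 6.24% were called at any of these hours, and 1.97% as lower in DXC. At 6 h alone 3.44% were called and 0.933% as lower in DXC. Over all 7 members and 15 hours, 18 pairs had an unadjusted p under 0.05, and the share of feature and hour pairs with such a p was 10.8% in the table.

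CKX9 at 6 h had 3.03, 2.97 and 3.09 in DXC against 3.82, 3.83 and 4.13 in DX. The groups did not overlap, which was so with DXC below DX for 15.2% of all features at that hour. The level averaged 3.03 ± 0.06 in DXC and 3.92 ± 0.18 in DX, 1.86-fold lower in DXC (log2 difference -0.89, SE 0.22, n = 3; adjusted p = 0.0257). The 3 experiments gave -0.79, -0.85 and -1.04. At 3 h the CKX9 values were 3.06, 3.25 and 3.65 in DXC against 3.71, 4.05 and 4.13 in DX, again without overlap, as for 12.5% of features (-0.64; adjusted p = 0.166), and by 9 h the difference was -0.21 with overlap. The groups did not overlap at 0 h either, with 3.35, 3.17 and 3.43 in DXC against 3.51, 3.65 and 3.51 in DX (-0.24; adjusted p = 0.569), as for 9.01% of features. At 18 h they were again apart (-0.30; adjusted p = 0.759), as for 5.91% of features. Relative to 0 h, CKX9 at 6 h stood at -0.29 in DXC and at 0.37 in DX, neither called (adjusted p = 0.645 and 0.939), and the difference of the changes was -0.66 (adjusted p = 0.75).

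CKX1 at 6 h had 3.46, 3.51 and 3.42 in DXC against 4.64, 3.72 and 4.16 in DX. The groups did not overlap, as for 15.2% of features with DXC below DX. The DX arrays were spread far more widely than those of DXC. The level averaged 3.46 ± 0.04 in DXC and 4.18 ± 0.46 in DX, 1.64-fold lower in DXC (-0.71, SE 0.17, n = 3; adjusted p = 0.019). The experiments gave -1.19, -0.21 and -0.74, so the size of the difference followed the DX arrays. Relative to 0 h, CKX1 at 6 h stood at -0.19 in DXC and at 0.36 in DX, neither called (adjusted p = 0.72 and 0.88). At 42 h, the other hour without overlap (5.54% of features lay so), the difference was -0.16 (adjusted p = 0.922).

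Both calls at 6 h fell in the hours in which features below the median level read lower in DXC, and 65.4% of such features had a lower DXC mean at 6 h. Their part in the result was not tested. After quantile normalization, which brought the median of those features at 6 h to -0.06, CKX9 had -0.77 (adjusted p = 0.0592) and CKX1 had -0.60 (adjusted p = 0.0381). The CKX9 call was lost without any 1 of the 3 experiments (adjusted p from 0.0943 to 0.379), with differences of -0.95, -0.91 and -0.82 without experiments 1, 2 and 3. The CKX1 call was lost without experiment 1 (-0.48; adjusted p = 0.484) or experiment 3 (-0.70; adjusted p = 0.412). In fits of the 6 h arrays alone the adjusted p was 0.186 for CKX9 and 0.512 for CKX1.

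**Figure D3:**
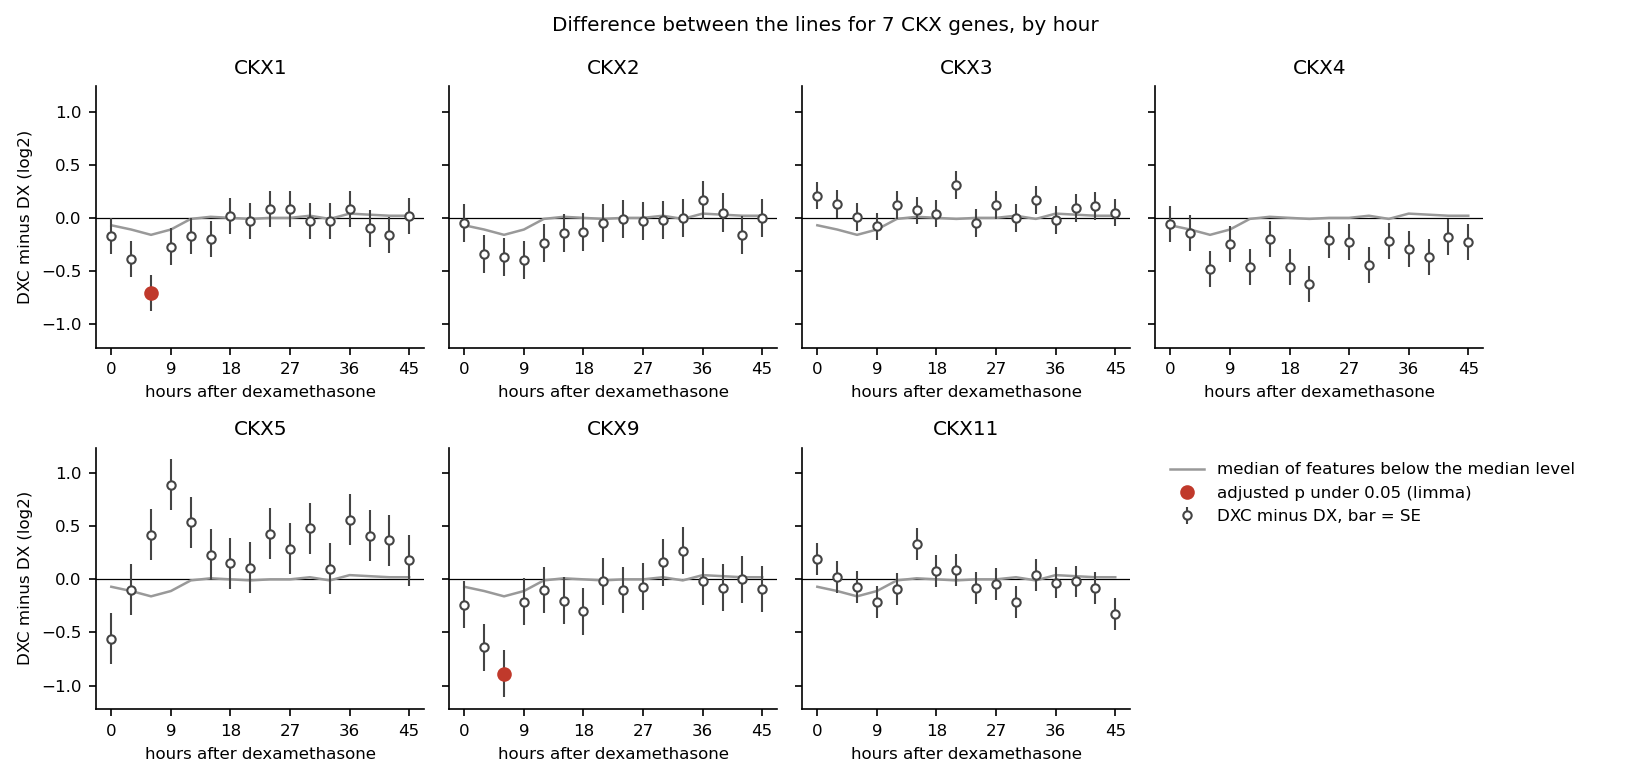
DXC minus DX (y axis, log2) for the 7 CKX genes against hours after dexamethasone (x axis), with the standard error of the limma fit as bars and called values as red dots. The grey line is the median difference of the features below the median level; CKX1 (-0.71) and CKX9 (-0.89) are called at 6 h, while CKX4 lies below 0 at all 16 hours.

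CKX4 was lower in DXC than in DX by a small amount at all 16 hours, from -0.06 at 0 h to -0.62 at 21 h, with no hour called. After quantile normalization the 0 h difference was 0.00. Of all features, 0.529% had a lower DXC mean at every hour. At 9 of the 16 hours (3, 6, 9, 12, 18, 21, 30, 36 and 39 h) all 3 DXC arrays were below all 3 DX arrays, and 0.284% of features had as many such hours or more. The 48 DXC arrays ran from 3.35 to 4.30 with a median of 3.89, and the 48 DX arrays from 3.57 to 4.58 with a median of 4.17.

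At 21 h CKX4 had 3.35, 3.88 and 3.36 in DXC against 4.28, 4.01 and 4.15 in DX. Experiment 2 was the closest pair, with -0.14 against -0.93 and -0.78 in experiments 1 and 3. The mean difference was -0.62 (SE 0.17, n = 3; adjusted p = 0.0678; 0.0475 with the experiment as a block), or 1.53-fold lower in DXC. Without experiment 2 it was -0.86 (adjusted p = 0.0323). At that hour 0.371% of features were called, and 5.89% had all 3 DXC arrays below all 3 DX arrays. At 6 h CKX4 had 3.72, 3.70 and 3.78 in DXC against 4.29, 3.85 and 4.50 in DX (-0.48; adjusted p = 0.2).

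In DXC the hourly CKX4 mean was highest at 0 h (4.03 ± 0.20) and 33 h (4.03 ± 0.25) and lowest at 21 h (3.53 ± 0.30). In DX it was highest at 39 h (4.29 ± 0.19) and lowest at 9 h (3.96 ± 0.08). The 21 h level in DXC was -0.50 from 0 h (adjusted p = 0.181), and the 3 experiments gave -0.50, -0.37 and -0.65.

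Averaged over 3 to 9 h (early), 12 to 24 h (middle) and 27 to 45 h (late), CKX4 was lower in DXC by -0.29 (SE 0.10; adjusted p = 0.0098), -0.39 (SE 0.08; adjusted p = 0.000219) and -0.28 (SE 0.06; adjusted p = 0.00278). All features called in these plain averages made up 61.4%, 5.99% and 5.13%, and those lower in DXC 28.5%, 2.36% and 2.93%. Every experiment gave a lower CKX4 level in DXC in each window. In the middle window these differences were -0.48, -0.12 and -0.58, and in the late window -0.05, -0.28 and -0.50. None of the 3 windows was called with sets of 4 hours as a random block (adjusted p = 0.0886, 0.0699 and 0.279) or without experiment 3 (0.0772, 0.0577 and 0.264). Without experiment 1 the early and middle windows were lost (0.108 and 0.0562), and quantile normalization ended the early call (0.0752).

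With the 0 h difference taken away, the CKX4 windows were -0.23, -0.33 and -0.22, with adjusted p of 0.862, 0.465 and 0.607. The 0 h arrays overlapped, at 3.84, 4.25 and 4.01 in DXC against 4.31, 4.09 and 3.87 in DX. Experiment 1 was lower in DXC by -0.46 at 0 h and experiments 2 and 3 were higher by 0.15 and 0.14. Experiment 1 gave window values of 0.11, -0.02 and 0.41, experiment 2 gave -0.35, -0.27 and -0.43, and experiment 3 gave -0.46, -0.72 and -0.64. Without experiment 1 the 3 windows were -0.40, -0.49 and -0.54, and without experiment 3 they were -0.12, -0.14 and -0.01. Without experiment 2 they were -0.17, -0.37 and -0.12.

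No member was called in any window once the 0 h difference was taken away, in a table where 0.333%, 0.347% and 0.248% of features were. At an unadjusted p under 0.05 in limma there was 1 member in each window, CKX5, against 6.42%, 11.9% and 12.1% of all features. CKX5 had the window values 0.97, 0.86 and 0.91 (adjusted p = 0.161, 0.172 and 0.131), and the early value had an adjusted p of 0.00584 with sets of 4 hours as a random block. Experiment 2 gave the highest CKX5 value in each window, 1.55, 1.35 and 1.57. In the plain averages CKX5 was higher in DXC by 0.40 (adjusted p = 0.0116), 0.29 (adjusted p = 0.109) and 0.34 (adjusted p = 0.0139). The 3 experiments gave plain differences of 0.02, 0.25 and 0.95 in the early window, 0.13, 0.05 and 0.69 in the middle and 0.39, 0.28 and 0.36 in the late window. Without experiment 3 the early value was 0.13 (adjusted p = 0.465) and the middle value 0.09 (adjusted p = 0.744). The early call was also lost after quantile normalization (0.28; adjusted p = 0.0794) and with sets of 4 hours as a random block (adjusted p = 0.0996). The late call was lost with that block (adjusted p = 0.511), without experiment 1 (0.32; adjusted p = 0.181) and without experiment 2 (0.38; adjusted p = 0.0605).

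At 0 h no member was called, and 0.0273% of all features were. CKX5 was the 1 member with an unadjusted p under 0.05 there, against 13.0% of features. The other 0 h differences ran from -0.24 for CKX9 to 0.21 for CKX3.

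CKX2 was lower in DXC in the first hours, with differences of -0.34, -0.37 and -0.40 at 3, 6 and 9 h, none of them called (adjusted p from 0.36 to 0.485). At 9 h it had 3.88, 3.51 and 3.81 in DXC against 4.51, 3.68 and 4.19 in DX, and the groups overlapped, as they did at all 16 hours. The plain early average was -0.37 (adjusted p = 0.00185), with -0.61, -0.04 and -0.46 in the experiments. It was -0.25 without experiment 1 (adjusted p = 0.0804) and -0.33 without experiment 3 (adjusted p = 0.0658). CKX1 and CKX9 had plain early averages of -0.45 (adjusted p = 0.000148) and -0.58 (adjusted p = 0.000168), and these called values stand in the window in which 61.4% of features were called. The CKX9 value was alike in the experiments, at -0.59, -0.55 and -0.60. These plain averages took the hours of an experiment as independent, while sets of 4 hours had a random block correlation of 0.44. From 21 to 33 h the CKX2 difference lay between -0.05 and 0.00. CKX2 levels ran from 3.51 to 4.60 over the DXC arrays and from 3.68 to 4.51 over the DX arrays.

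On the deposited scale and without a block, CKX3 and CKX11 showed no called difference at any hour, in any window or over time. CKX3 ran from 3.07 to 3.83 over the DXC arrays and from 3.17 to 3.81 over the DX arrays, and its hourly means spanned 0.25 in DXC and 0.31 in DX, against a within-group SD of 0.15. Its largest difference was 0.31 at 21 h (adjusted p = 0.294), with 3.81, 3.69 and 3.25 in DXC against 3.31, 3.23 and 3.27 in DX, where the experiment 3 array of DXC lay among the DX arrays.

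CKX11 ran from 6.26 to 7.10 over the DXC arrays and from 6.18 to 7.14 over the DX arrays. Its highest hourly mean in DXC was at 15 h, with 6.92, 7.10 and 6.86 in DXC against 6.68, 6.56 and 6.63 in DX. The groups did not overlap there, as for 5.82% of features, and the difference of 0.33 was not called (adjusted p = 0.379). At 9 and 30 h the groups were apart with DXC lower (-0.21 each; adjusted p = 0.772 and 0.755). The share of features so placed at those hours was not counted. At 45 h the difference was -0.33 with overlap (adjusted p = 0.376), with every experiment lower in DXC. The sign of the CKX11 difference at 0 and 3 h turned with the scaling, at 0.19 and 0.02 as deposited and -0.02 and -0.26 after quantile normalization. Its plain early average was -0.08 as deposited (adjusted p = 0.41) and -0.36 after quantile normalization (adjusted p = 0.00263). Its time effect in DXC had an adjusted p of 0.199, and of 0.0409 with the experiment as a block.

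Levels from 36 to 45 h were also set against those from 12 to 21 h, the same hours of the day before, as a description with no test. In DXC the mean difference was above 0 for 5 of the 7 members, and the values ran from -0.13 (CKX3) to 0.25 (CKX9). The CKX9 difference came from experiment 1, with 0.65 against 0.05 and 0.05 in experiments 2 and 3. In DX these differences ran from -0.08 (CKX5) to 0.14 (CKX9).

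The members did not share 1 course. Over the 32 means of line and hour, which share the same arrays and are given as a description, CKX1 correlated with CKX2 by 0.80 and with CKX9 by 0.68. CKX4 and CKX5 correlated by -0.55, and within the 16 hours of a line by -0.41 in DXC and -0.07 in DX. CKX5 and CKX11 correlated by -0.46, with -0.43 in DXC and -0.60 in DX. The CKX1 and CKX2 courses correlated in both lines, by 0.80 in DXC and 0.66 in DX. CKX1, CKX2 and CKX9 lie below the median level, where features had a negative median DXC minus DX from 0 to 9 h. The part of this shift in the correlations was not tested.

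Among 24160 other features with 1 gene, those most like each member by Pearson correlation over the same 32 means were mostly genes with no name beyond their number. These means include both lines at each hour, so a line difference like the member's follows in part from this choice. CKX5 was closest to LOC4324900 and LOC4325094 (0.88 each), which differed between DXC and DX at 9 h by 0.77 and 0.64. CKX1 was closest to LOC4351225 (0.85) and LOC9269411 (0.84), and CKX2 to LOC4349233 (0.90) and to LOC9266942, the small GTPase gene RAN3 (0.87). CKX9 was closest to LOC4341304 (0.83) and LOC4335402 (0.81), which were lower in DXC at 6 h by differences of -0.64 and -0.58. CKX4 was closest to LOC9268552 and LOC9272445 (0.85 each), but over the 16 hours of DX alone these correlated with it by 0.16 and 0.15. CKX3 was closest to LOC4332686 (0.77) and LOC4350407 (0.73), and CKX11 to LOC4341121 (0.79) and LOC4332604 (0.78).

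Of the 34 other cytokinin pathway genes found by name, 7 were called between DXC and DX at some hour from 3 to 45 h, 6 higher in DXC and 1 lower, where 4.28% of all features were called higher and 1.97% lower. Of the CKX genes 2 of 7 were called, both lower. The median difference at 6 h was -0.37 over the CKX genes and -0.01 over the 34 genes, with 0.02 over all features. At 9 h these medians were -0.21, 0.01 and 0.02. CKX5 and CKX11 apart, the CKX genes lay below the median level. Features below that level had medians of -0.16 at 6 h and -0.11 at 9 h, and those above it 0.26 and 0.21. No features were matched by name to the IPT genes of cytokinin synthesis or to cytokinin transport, which were not analysed here.

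Of the 10 LOG genes, the enzymes that release active cytokinin, 3 were called. LOGL4 at 9 h had 6.55, 6.41 and 7.38 in DXC against 5.00, 4.79 and 5.53 in DX. It was 3.18-fold higher in DXC (1.67, SE 0.28; adjusted p = 0.000174) and still higher at 12 h (1.11; adjusted p = 0.0411). The highest LOGL4 mean in DXC fell at 9 h, as did that of CKX5. LOGL7 at 6 h had 8.20, 8.41 and 7.96 in DXC against 7.23, 7.03 and 6.63 in DX (2.34-fold higher; adjusted p = 0.00141). This log2 difference was 1.23 as deposited and 0.83 after quantile normalization (adjusted p = 0.00462). At 0 h LOGL4 differed by -0.40 (adjusted p = 0.49), without overlap, as for 9.01% of features with DXC below DX. LOGL7 differed by 0.41 at 0 h (adjusted p = 0.424), and by 0.15 after quantile normalization. Features above the median level, where LOGL7 lies, had a median DXC minus DX of 0.16 at 0 h. LOGL3 was lower in DXC at 42 h, with 6.09, 5.68 and 5.55 against 6.96, 7.16 and 7.46 in DX (-1.42, adjusted p = 0.0132). With the 0 h difference taken away, none of the 3 genes was called in any window. The early window was 0.85 for LOGL4 (adjusted p = 0.565) and 0.50 for LOGL7 (adjusted p = 0.798). The late window was -1.12 for LOGL3 (adjusted p = 0.151).

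On the receptor side 1 of 5 genes was called, HK1, a histidine kinase also named MHZ1 and known in rice from ethylene signalling in roots. At 9 h it had 6.60, 6.88 and 6.97 in DXC against 3.92, 4.07 and 4.28 in DX (adjusted p = 1.27e-08). The other 4, among them the cytokinin receptor genes HK3, HK4 and HK5, were called at no hour, and neither were the 4 phosphotransfer genes. Of the 34 pathway genes, HK1 alone was called in a window with the 0 h difference taken away. It had 1.74 in the early window (adjusted p = 0.00702) and 1.82 in the middle window (adjusted p = 0.00273). Of all features, 0.333% and 0.347% were called there.

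Of the 9 type-A response regulators 1 was called, RR9, with 6.91, 6.28 and 6.83 in DXC against 4.31, 5.79 and 3.89 in DX at 6 h (4.02-fold higher; adjusted p = 0.0135). Experiment 2 differed by 0.49 only, against 2.59 and 2.94 in experiments 1 and 3. RR9 was already higher in DXC at 0 h, not called, with 5.43, 5.49 and 5.62 in DXC against 4.39, 5.24 and 4.59 in DX (0.77; adjusted p = 0.433), and its early window minus 0 h was 0.51 (adjusted p = 0.876). Of the 6 type-B response regulators 2 were called. RR23 at 9 h had 5.86, 5.67 and 5.68 in DXC against 3.92, 5.01 and 4.47 in DX (1.27; adjusted p = 0.00146). RR24 at 9 h had 4.03, 4.04 and 4.11 in DXC against 3.31, 3.39 and 3.48 in DX (0.66; adjusted p = 0.00614). The 0 h differences of LOGL3, HK1, RR23 and RR24 were 0.25, 0.03, 0.21 and 0.00, with overlap in each. The early window minus 0 h was 0.75 for RR23 (adjusted p = 0.539) and 0.35 for RR24 (adjusted p = 0.73). Leaving out an experiment ended the calls of RR24 and LOGL3 whichever it was, those of RR9 and RR23 (9 h) without experiment 1 or 3, and that of LOGL7 without experiment 1 or 2, while LOGL4 and HK1 were called at 9 h in each such fit. In fits of each hour alone the calls named here ended for all but HK1 at 9 h.

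**Figure D4:**
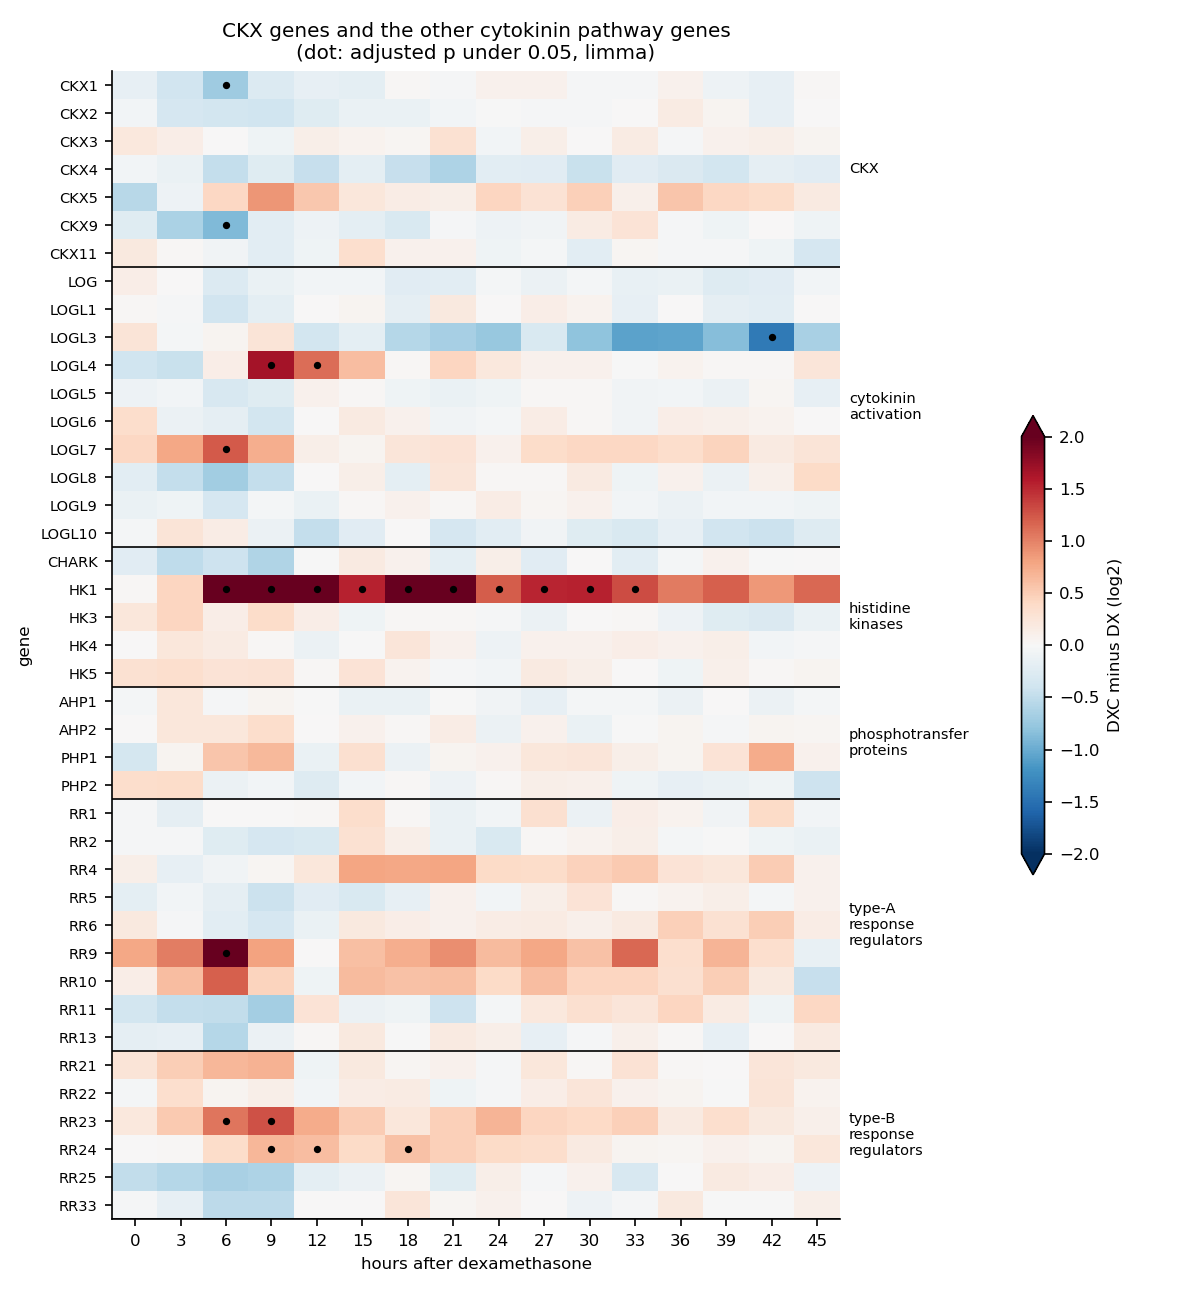
DXC minus DX (colour, log2, red higher and blue lower in DXC, ends of the scale at 2 and -2) for the 7 CKX genes and 34 other cytokinin pathway genes (rows, grouped by role) at 16 hours (columns); dots mark an adjusted p under 0.05. Called values are sparse outside HK1, which is called at 10 hours, and the CKX block has 2 called values, both at 6 h.

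Markers of cell types that the stem base can hold were read beside these values. The mean level of 9 KNOX genes of the shoot meristem ran from 4.34 to 4.74 over the DXC arrays and from 4.44 to 4.81 over the DX arrays. The mean of 8 leaf photosynthesis genes ran from 5.63 to 6.74 in DXC and from 5.63 to 6.60 in DX, with medians over 0 to 9 h of 6.33 in DXC and 6.07 in DX. The mean of 13 seed genes had a median of 3.10 in DXC and 3.29 in DX over 0 to 9 h, the hours in which CKX1 and CKX9 were lower. That mean lay below the median level (4.69), where features had a median DXC minus DX from -0.16 to -0.07 in these hours. The photosynthesis mean lay above it, where features had 0.16 to 0.27. The quiescent centre gene QHB ran from 3.84 to 5.97 in DXC and from 3.92 to 4.64 in DX over 0 to 9 h, with a difference of 1.18 at 6 h. WOX11, a gene of growing crown roots, had medians of 5.06 in DXC and 5.23 in DX over 0 to 9 h, and of 4.92 in DXC and 5.70 in DX over 27 to 45 h. At some hour from 3 to 45 h, 2 of 9 KNOX genes, 0 of 8 photosynthesis genes and 1 of 13 seed genes were called, these 3 lower in DXC, where 6.24% of all features were called and 1.97% as lower. QHB was called higher and WOX11 lower in DXC. The part of these cell types in the CKX values was not tested. No feature could be tied to CRL1 by the annotation used here, so the induced gene itself was not analysed here.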

How the data were processed

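Expression was measured on 96 Affymetrix arrays of rice stem bases. The deposited table holds log2 expression values of 36643 features, made by the authors with GCRMA per the submitters' processing notes, with version and settings not given in the sources used here. Columns without a sample numbered 0. Gene symbols came from the platform annotation, and synonyms from the RefSeq gene table of assembly ASM3414082v1, in which all 24161 single-gene features were found.

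The 32 groups of line and hour were fitted with limma 3.58.1 in R 4.3.3 (lmFit, eBayes with trend, 64 residual degrees of freedom) on all features. Adjusted p-values are Benjamini-Hochberg values over all features, and for single hours over features and 15 hours together, called under 0.05. An SE is that of the fit. Windows are given with and without the 0 h difference, and precision is limited by how many arrays there are. Alternatives were the experiment as a block, each experiment left out, quantile normalization, median centring, sets of 4 hours as a random block (statmod 1.5.0), eBayes without trend, features above the median level, and fits of single hours or lines. The fits were tested on simulated data with independent noise, while sets of 4 hours had a random block correlation of 0.44. For DXC minus DX at 6 h, 8% of changes of 0.5 (log2) were called, 50% of 1 and 92% of 1.5. The simulation changed 50 features at each size, while 1259 features were called at 6 h in the data. The adjustment depends on such counts, so the shares called can differ in the data. An uncalled small difference does not show that a change was absent.

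Replicate numbers mark independent experiments per the series design text, so they pair the lines. Within an hour, the deviations of 48 same-numbered DXC and DX arrays had a mean correlation of 0.05 (-0.64 to 0.52), against -0.03 in 96 other pairs.

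The members and the gene lists were chosen with earlier results of these data known. Named were all 7 members, at most 4 called genes per pathway list, and the 2 features most like each member. No sequences were used here.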

Additional observations from a re-analysis of the deposited data

How the results depend on the processing

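The number of CKX members called at an hour from 3 to 45 h (2, CKX1 and CKX9) was 4 with the replicate block, which pairs the lines by experiment and added CKX4 and CKX5. It was 0 to 2 with 1 experiment left out (2, CKX1 and CKX4, without experiment 2), 1 after quantile normalization, 1 of the 2 members tested among features above the median level (CKX5), and 0 in fits of each hour alone. The early window count (0) was 1 with sets of 4 hours as a random block. Without subtraction of the 0 h difference the early, middle and late counts were 5, 1 and 2. Of all features, 61.4%, 5.99% and 5.13% were called in those plain windows. The count of time effects in DXC (1, CKX5) was 2 with the block, which added CKX11, 0 in a fit of DXC alone and 0 to 1 with 1 experiment left out, where the 1 was CKX9. The count of members whose change from 0 h differed between the lines at an hour (0) was 1 with the block and 1 with sets of 4 hours as a random block (CKX5 at 9 h). The block changed no other call of a member. The causes were not tested. Signs turned for values near 0: CKX3 at 6 h was 0.01 but -0.02 to 0.05 with 1 experiment left out (-0.01 without experiment 1, -0.02 without experiment 3), CKX11 at 6 h was -0.07 but -0.15 to 0.03 (0.03 without experiment 2), CKX3 at 9 h was -0.08 but 0.02 after quantile normalization, and the CKX3 early window was -0.19 but 0.02 with no subtraction. Over all features, the settings moved the count called at an hour between 83 and 5025 (2287 as reported), the early window between 4 and 22507 (122), the middle between 5 and 2196 (127), the late between 1 and 1878 (91), and the time effect in DXC between 332 and 7370 (1969). For the interaction the range was 67 to 769 (355), for time in DX 8 to 1736 (136), for hours against 0 h 366 to 3276 in DXC (1563) and 0 to 36 in DX (7), and for 0 h 0 to 36 (10). The 5 members below the median level have no measured background to be read against.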
